A study of Rattus norvegicus with 7 samples.

Results

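The HoxB genes from Hoxb3 to Hoxb13 were compared between proximal and distal colon crypts of the rat. Crypts are the gland-like pits of the colon epithelium, in which stem cells renew the absorptive, mucus-secreting and endocrine cells of the bowel lining. Every gene of the deposited expression table named Hoxb and a number was taken, which gave 7 of 16468 genes, and they were ordered by their position on chromosome 10 of the rn4 build. The cluster was chosen with the difference between the regions known, so the values of its genes are a description of these libraries and no test was made of them. Hoxb1, Hoxb2 and Hoxb6 were not analysed here. Ranks and shares among Hox genes cover only the 23 Hox genes that were, not the whole family. The animals were Sprague Dawley rats, an outbred strain, at 14 weeks of age, with no allele or treatment named for either group. Crypts of 7 rats were pooled for the single RNA library of each region, so there was no spread between replicates. By its title, the study looked for site-specific histone marks and proto-oncogene expression in the colon. Its 5 libraries of immunoprecipitated chromatin were not analysed here.

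Hox genes encode homeodomain transcription factors that specify position along the head-to-tail axis of the embryo. In vertebrates they lie in clusters, and the order of the genes on the chromosome follows the order of the body regions in which they act: genes with low numbers act towards the head and genes with high numbers towards the tail. The gut keeps such regional Hox expression in its adult epithelium, and Hoxb13 is known as a gene of the hindgut, the prostate and the tail end of the embryo. HoxB clusters also carry microRNA genes of the miR-196 and miR-10 families between the protein-coding genes.

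The RefSeq reference held the mature sequences of these microRNAs, which are shown because a precursor of each family lies within the cluster and because the members of the miR-196 family come from different Hox clusters. Capitals mark the seed, bases 2 to 8 from the 5′ end, which governs target recognition.
miR-196c-5p (HoxB cluster): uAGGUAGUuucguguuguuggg
miR-196a-5p (HoxC cluster): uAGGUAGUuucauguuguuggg
miR-196b-5p (HoxA cluster): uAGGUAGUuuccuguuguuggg
miR-10a-5p (HoxB cluster): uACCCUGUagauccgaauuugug
The 3 miR-196 sequences share their seed. Both miR-196a-5p and miR-196b-5p differ from miR-196c-5p at 1 base, position 12 from the 5′ end, which is outside the seed. In the GRCr8 assembly miR-196c-5p lies on the plus strand at chr10:81727561-81727582 and miR-10a-5p on the plus strand at chr10:81779730-81779752.

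The 7 genes spanned 154 kb. From one end to the other they lay in the order Hoxb13, Hoxb9, Hoxb8, Hoxb7, Hoxb5, Hoxb4 and Hoxb3. Between the end of Hoxb13 and the start of Hoxb9 there was a gap of 74.5 kb, while the 6 genes from Hoxb9 to Hoxb3 lay together within 77.0 kb. The direction of the difference changed across that gap. Hoxb13 was higher in the distal library, and all 6 genes on the other side of the gap had the higher value in the proximal library. Levels were read as FPKM, fragments per length of transcript and per size of library, and pairs of values give the proximal library first.

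Hoxb13, at the tail end of the cluster (chromosome 10, 84925520 to 84927793), stood at 3.06 FPKM in proximal and 301 FPKM in distal crypts, a 98.5-fold difference. It was the most abundant of the 23 Hox genes analysed here in the distal library and the 12th of them in the proximal one. By level it lay at percentile 97.8 of the 9847 genes with at least 1 FPKM in 1 library in the distal colon, and at percentile 14.8 in the proximal colon. In the authors' deposited table its log2 fold change was 6.62, and their test statistic implied a standard error of 0.53. That error comes from the model behind the table and does not measure variation between rats.

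Hoxb9 (85002254 to 85005760), the first gene after the gap and a factor of the trunk and tail, was abundant in both libraries. It stood at 109 FPKM in proximal and 54.6 FPKM in distal crypts, which is 2.00-fold higher in the proximal one. It was the most abundant of the 23 Hox genes analysed here in the proximal library and the 3rd of them in the distal one. On the scale of log2((distal FPKM + 1)/(proximal FPKM + 1)), called the log2 ratio here, its value was -0.99, just inside the limit of 1 in either direction that was used to call a gene 2-fold apart. Rescaling the distal values gave a log2 ratio of -1.09 (median over measured genes set to 0) or -1.15 (equal upper quartiles), so whether Hoxb9 counts as 2-fold apart depends on the scaling. The authors' deposited table called it higher in the proximal library with a q of 0.0319.

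Hoxb8 and Hoxb7 come next and are neighbours only 1.98 kb apart. Hoxb8 (85013711 to 85015462), a factor of trunk patterning and of blood progenitors, stood at 46.5 FPKM in proximal and 0.916 FPKM in distal crypts, a 50.8-fold difference. Hoxb7 (85017440 to 85020859) stood at 55.2 and 1.59 FPKM, a 34.8-fold difference. Both were therefore expressed at the same order of magnitude as Hoxb9 in the proximal library but far below it in the distal one: Hoxb9 was 1.98-fold above Hoxb7 in proximal crypts and 34.4-fold above it in distal crypts. The steepest change between 2 neighbours on the proximal-higher side thus lay in the 7.95 kb between Hoxb9 and Hoxb8.

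Hoxb5, Hoxb4 and Hoxb3, the genes of this set that act nearest to the head, were less abundant in the proximal library and close to the detection limit in the distal one. Hoxb5 (85035516 to 85037724), a gene known for its part in the enteric nervous system, stood at 23.4 FPKM in proximal and 0.422 FPKM in distal crypts, a 55.4-fold difference. Hoxb4 (85050695 to 85053276), known for its effect on blood stem cells, stood at 15.4 and 0.138 FPKM. Hoxb3 (85076528 to 85079216) stood at 13.8 and 0.0973 FPKM. The distal values of Hoxb4 and Hoxb3 rest on very few reads. With 1 read of a 1 kb transcript worth about 0.107 FPKM in the distal library, and the locus length as the longest possible transcript, they corresponded to at most about 3.33 reads for Hoxb4 and 2.45 reads for Hoxb3. The same estimate gave at most 8.74 reads for Hoxb5, 15.0 for Hoxb8 and 50.9 for Hoxb7. No fold is given for Hoxb4 and Hoxb3 for that reason.

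**Figure D1:**
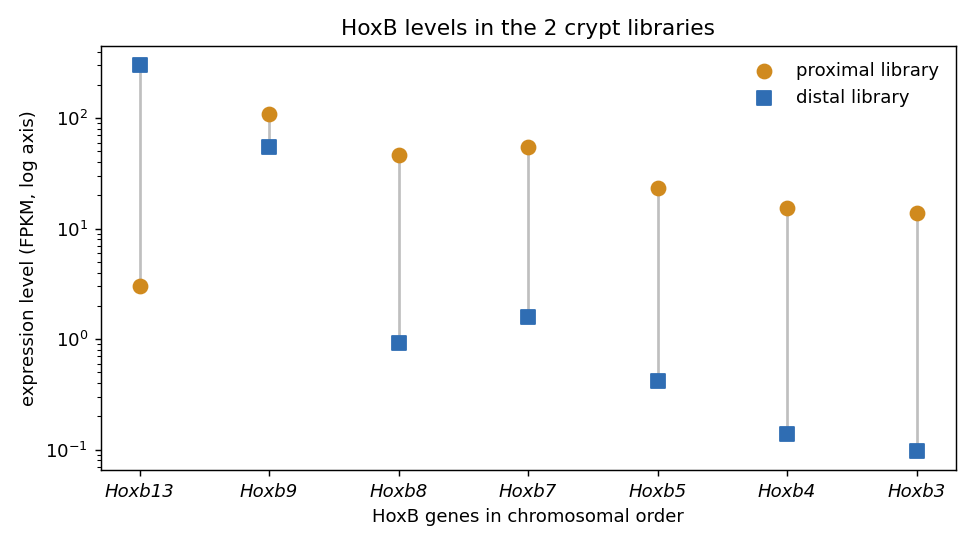
Level of each HoxB gene in FPKM on a log axis, in chromosomal order; circles are the proximal and squares the distal library, with 1 library each and a grey line joining the 2 values of a gene. Hoxb13 is the only gene with the square on top, Hoxb9 has its 2 points close together at 109 and 54.6 FPKM, and the distal values fall from 54.6 FPKM for Hoxb9 to 0.0973 FPKM for Hoxb3.

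In the proximal library the level followed the position of the gene almost in order. From Hoxb9 to Hoxb3 it fell 7.91-fold, and Hoxb7 against Hoxb8 was the only pair out of order, at 55.2 and 46.5 FPKM. The distal library had the same order of these 6 genes, including the higher value of Hoxb7 over Hoxb8, at a much lower level for all but Hoxb9. Hoxb13 did not continue this order: it was the lowest of the 7 genes in the proximal library and the highest in the distal one. With 1 library per region, whether neighbouring levels in this order differ beyond the variation between rats cannot be read from these data.

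The 5 genes from Hoxb8 to Hoxb3 all lay far on the proximal side. In the authors' deposited table their log2 fold changes of distal over proximal ranged from -7.15 for Hoxb3, with an implied standard error of 1.10, to -5.12 for Hoxb7, with an implied 0.57. The deposited values of Hoxb8, Hoxb5 and Hoxb4 were -5.67, -5.79 and -6.80, with implied standard errors of 0.65, 0.70 and 0.91. The steps between chromosomal neighbours from Hoxb8 to Hoxb3 ranged from -1.01 to 0.55. The step from Hoxb13 to Hoxb9 was -7.62 and that from Hoxb9 to Hoxb8 -4.67. These steps are a description, since the implied errors hold no variation between rats. On the scale with 1 FPKM added, the order of the 5 genes largely turned around, from -4.63 for Hoxb8 to -3.75 for Hoxb3, because the added constant weighs most on the lowest values. The order of these 5 genes by the size of their difference thus depends on the scale.

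**Figure D2:**
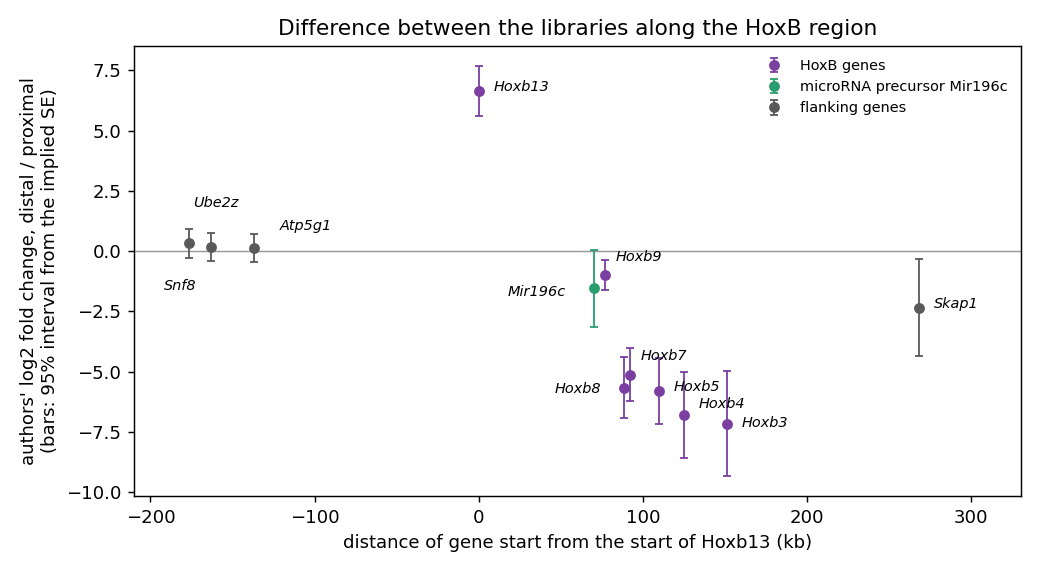
The authors' log2 fold change of distal over proximal against the distance of each gene's start from that of Hoxb13 in kb; bars are 95% intervals from the standard error implied by the authors' test statistic, purple points are HoxB genes, the green point is Mir196c and grey points are flanking genes. Hoxb13 stands at 6.62, Hoxb9 at -0.999, the 5 genes from Hoxb8 to Hoxb3 between -7.15 and -5.12, and the flanking genes Snf8, Ube2z and Atp5g1 near 0.

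Counted over the cluster, 5 of the 7 genes passed 2-fold towards the proximal library and 1 towards the distal library, and Hoxb9 lay between the limits. Among all 9847 genes with at least 1 FPKM in 1 library these shares were 3.91% and 3.71%. The authors' deposited table called 6 HoxB genes towards the proximal and 1 towards the distal library, against 2.69% and 2.73% of the 10099 genes it tested. Since the cluster was chosen on this contrast, nothing is read from these counts. The median log2 ratio of the 6 genes from Hoxb3 to Hoxb9 was -3.97, beside 0.09 for all measured genes. It was -5.50 with 0.1 FPKM added and -2.19 with 5 FPKM added in place of 1.

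The summed HoxB level differed less between the 2 libraries than the level of any single HoxB gene, at 266 FPKM (proximal) and 359 FPKM (distal). Its make-up differed. In the proximal library Hoxb9 held 41.0% of the sum, Hoxb7 20.7%, Hoxb8 17.4%, Hoxb5 8.77%, Hoxb4 5.76%, Hoxb3 5.18% and Hoxb13 1.15%. In the distal library Hoxb13 held 83.9% and Hoxb9 15.2%, and the remaining 5 genes together held 0.880%. The sum over the 5 genes from Hoxb3 to Hoxb8 was 154 FPKM in proximal and 3.16 FPKM in distal crypts, a 48.8-fold difference. HoxB genes made up 66.1% of the summed FPKM of the 23 Hox genes analysed here in proximal and 63.2% in distal crypts. These libraries come from whole crypt preparations, so fewer cells that express a gene and less RNA per cell cannot be told apart.

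**Figure D3:**
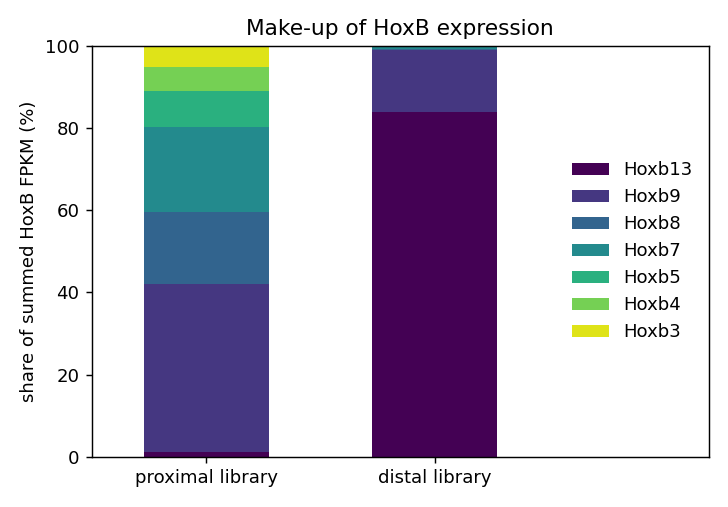
Share of each HoxB gene in the summed HoxB FPKM, in percent, for the proximal and the distal library (1 library each). The distal bar is filled by Hoxb13 (83.9%) and Hoxb9 (15.2%), whereas 6 genes each hold more than 5% of the proximal bar.

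The crypt origin of both libraries was checked against marker genes, since Hox genes are also expressed in mesenchyme, nerve and blood cells. All 10 epithelial markers were measured and 9 were less than 2-fold apart, as were 92.4% of all measured genes. This count near that share is no result about the markers. The exception was Car1, at 11730 and 1781 FPKM. Among the others were Epcam at 1490 and 1990.5 FPKM, Krt20 at 522 and 581 FPKM, and Cdx2, the intestinal homeobox factor, at 342 and 370 FPKM. Of 9 fibroblast and mesenchymal markers in the table, Dcn and Lum were listed at 0 in both libraries and Col1a1 stood at 0.170 and 0.445 FPKM. Of these markers 2 reached 1 FPKM in either library, Pdgfrb and Vim. On the scale with 1 FPKM added, the only one past 2-fold was Pdgfrb, a receptor of perivascular and mesenchymal cells. Of all measured genes, 3.91% passed it in that direction. Pdgfrb stood at 2.50 and 0.410 FPKM (6.09-fold as a plain ratio), in the direction of the genes from Hoxb3 to Hoxb9. The authors' deposited table called it, and its part in the HoxB difference was not tested. The summed level of these 9 markers was 17.0 and 8.57 FPKM, most of it from Vim, at 13.6 and 7.07 FPKM. Neuron and glia markers summed to 4.48 and 4.15 FPKM over 7 genes, with Sox10 listed at 0 in both, and endothelial markers to 1.84 and 1.49 FPKM over 3 genes. Smooth muscle markers summed to 5.35 and 8.84 FPKM over 5 genes. All 5 had the higher value in the distal library, the direction of Hoxb13. The share of all genes with that direction was not counted, and their median log2 ratio was itself 0.09. Nothing is therefore read from the shared direction. Only Des, at 0.040 and 2.91 FPKM, passed 2-fold on the scale with 1 FPKM added. Tagln stood at 3.86 and 4.21 FPKM and Myh11 at 1.36 and 1.37 FPKM, and Cnn1 and Actg2 stayed below 1 FPKM in both libraries. The part of smooth muscle cells in the Hoxb13 difference was not tested.

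Most leukocyte markers had their higher value in the same library as the genes from Hoxb3 to Hoxb9. Of 7 markers, 4 passed 2-fold towards the proximal library, as 3.91% of all measured genes did. The value was higher there for 6, but no share of all genes was counted for direction alone. Among the 6, Cd3e stood at 1.40 and 1.03 FPKM and Cd68 at 2.98 and 2.30 FPKM. The 7 markers summed to 46.0 and 14.6 FPKM, and none was listed at 0. Cd79b, a part of the B cell receptor, stood at 8.80 and 0.502 FPKM, and Ptprc, the common leukocyte antigen, at 8.97 and 1.44 FPKM. The T cell marker Cd3g stood at 6.37 and 6.49 FPKM. Lyz2, the highest of these markers in the proximal library, stood at 11.1 and 2.50 FPKM, and its locus coincides with that of another gene. The part of leukocytes in the HoxB difference was not tested.

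Besides the HoxB genes the cluster held 2 rows, both of microRNA precursors. Mir196c, 80 bases at 84995948 to 84996027 and 6.23 kb from Hoxb9, stood at 1728 and 592 FPKM. In the authors' deposited table its log2 fold change was -1.55, the implied standard error 0.82 and the q 0.460, and it was not called. FPKM divides by length, so few fragments on so short a locus give a large value, and its level cannot be set beside those of the longer genes. The value belongs to the precursor locus, and the mature microRNA was not measured here. The miR-196 family is known for its pairing with Hoxb8 mRNA. Of the precursors with the same seed in other clusters, Mir196b stood at 241 and 328 FPKM and Mir196a was listed at 0 in both libraries. Mir10a, 1.27 kb from Hoxb4, was also listed at 0 in both, as were 338 of the 378 microRNA rows of the table.

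The measured genes that flank the cluster were less than 2-fold apart, as were 92.4% of all measured genes. A count of 3 near that share is no result about the flanks. Within 300 kb on either side the table held 6 other genes, of which 3 had at least 1 FPKM, all beyond Hoxb13. Atp5g1, a subunit of the mitochondrial ATP synthase and the nearest of them at 134 kb from Hoxb13, stood at 460 and 500.5 FPKM. Ube2z, a ubiquitin-conjugating enzyme, stood at 53.3 and 60.03 FPKM, and Snf8, a subunit of the endosomal sorting machinery, at 79.1 and 99.6 FPKM. The hormone gene Gip and Igf2bp1, an RNA-binding protein gene, were listed at 0 in both. Beyond Hoxb3 the only gene was Skap1, a T cell adaptor, at 0.740 and 0.146 FPKM, which the authors' deposited table did not test.

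The other Hox clusters were set beside HoxB by paralogue group, the sets of genes with the same number that descend from one ancestral gene. Hoxd13, the only paralogue of Hoxb13 analysed here, stood at 0.200 and 37.7 FPKM, in the direction of Hoxb13 but at a lower level. Of the paralogues of Hoxb9, Hoxa9 stood at 86.5 and 78.4 FPKM, Hoxd9 at 0 and 1.47 FPKM, and Hoxc9 at 0 and 0.231 FPKM. Hoxb9 and Hoxa9 were thus both abundant and both within about 2-fold between the regions. Of the paralogues of Hoxb4, Hoxd4, whose locus coincides with that of another gene, stood at 3.54 and 0.0589 FPKM, in the direction of Hoxb4, and Hoxc4 at 0.192 and 0.0403 FPKM. The paralogues Hoxc8 and Hoxc5 of Hoxb8 and Hoxb5 were near 0 in both libraries, at 0 and 0.0592 FPKM and at 0.0331 and 0 FPKM.

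The change of direction along HoxD is set beside that along HoxB. In HoxD the genes Hoxd13, Hoxd12 (0 and 1.79 FPKM), Hoxd10 (0.0470 and 5.05 FPKM) and Hoxd9 all had the higher value in the distal library and Hoxd4 in the proximal one. In HoxB the group 9 gene had its higher value in the proximal library. The group 9 gene of HoxD, Hoxd9, is low, and the authors' deposited table did not call it (q of 0.0541), nor Hoxd12 (q of 0.0655) or Hoxa10 (q of 0.0530). In HoxA, Hoxa10 (7.09 and 29.9 FPKM, 4.22-fold), which shares its locus with another gene, was higher in the distal library, while Hoxa9, Hoxa6 (35.3 and 52.5 FPKM) and Hoxa2 (3.60 and 1.79 FPKM) were less than 2-fold apart on the log2(FPKM + 1) scale. None of the 5 HoxC genes reached 1 FPKM. Whether the clusters differ beyond variation between rats cannot be tested with 1 library per region.

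**Figure D4:**
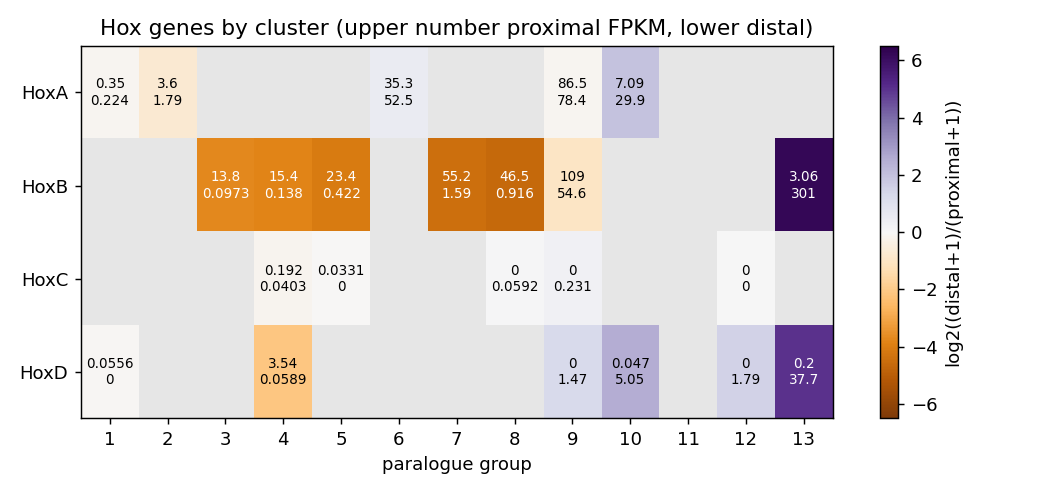
Hox genes by cluster (rows) and paralogue group (columns); each cell gives the proximal FPKM above the distal FPKM, the colour is the log2 ratio of distal over proximal with 1 FPKM added (orange, higher in the proximal library; purple, higher in the distal library), and grey cells have no value here. The HoxB row turns from orange at Hoxb8 (46.5 and 0.916 FPKM) through pale orange at Hoxb9 to purple at Hoxb13, and the HoxC row is pale throughout.

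Genes whose products act with Hox proteins or on Hox genes are given beside the share over all measured genes, of which 92.4% were less than 2-fold apart. A list of this size near that share is no result about its genes. Hox proteins bind DNA together with homeodomain partners of the Pbx, Meis and Pknox families. The table held 8 such genes, of which 6 were measured and none was 2-fold apart, with a median log2 ratio of -0.31 beside 0.09 for all measured genes. Pbx2, which shares its locus with another gene, stood at 30.2 and 31.7 FPKM. Meis1 and Meis2, chosen after their values were seen, were low, at 0.037 and 0.061 FPKM and at 0.324 and 0.0250 FPKM.

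Cdx factors and retinoic acid are known to set Hox expression in the embryo. The table held 17 such genes, and of the 12 measured ones 1 passed 2-fold towards the distal and 2 towards the proximal library, where 3.71% and 3.91% of all measured genes did. Crabp2, a binding protein that carries retinoic acid to its receptor, stood at 0.589 and 5.02 FPKM, 8.52-fold more in distal crypts. Aldh1a1, an enzyme that makes retinoic acid, stood at 36.2 and 13.2 FPKM, 2.74-fold more in proximal crypts, and Cdx4 stood at 1.30 FPKM in the proximal and was listed at 0 in the distal library. These 3 were called in the authors' deposited table, which called 2.73% (distal) and 2.69% (proximal) of all genes it tested. Rxra, a receptor partner, stood at 54.9 and 45.2 FPKM. The counts past 2-fold depended on the settings. With 5 FPKM added in place of 1 they were 0 (distal) and 1 (proximal). The proximal count was 3 with 0.1 FPKM added and 1 with a minimum of 5 FPKM. The median log2 ratio of the list was -0.057 and turned to 0.11 with that minimum.

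Polycomb proteins keep Hox genes silent and Trithorax proteins keep them active. All 15 measured genes of this list, of 17 in the table, were less than 2-fold apart, near the 92.4% of all measured genes, and their median log2 ratio was 0.16, beside 0.09 for those genes, or -0.0050 with equal upper quartiles. The methyltransferase gene Ezh1 stood at 24.8 and 34.6 FPKM and the demethylase gene Kdm6b at 29.7 and 26.9 FPKM.

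The genes nearest to Hoxb13 and to Hoxb7, the most abundant HoxB gene past 2-fold towards the proximal library, were found by the distance between the pairs of log2(FPKM + 1) values over the 2 libraries. Nearest to Hoxb13 were B3gnt7, at 6.43 and 499 FPKM (distance 1.14), Tgm3, at 2.43 and 112 FPKM (1.44), and Vsig1, at 4.78 and 98.1 FPKM (1.69). Nearest to Hoxb7 were Napsa, at 52.4 and 1.27 FPKM (0.20), Gsta5, at 40.2 and 1.70 FPKM (0.45), and its chromosomal neighbour Hoxb8 (0.50). Over 2 libraries this likeness says only that the 2 levels are close.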

How the data were processed

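Per the file headers, each row of the deposited table gives a gene's locus, its value in each region, and the authors' log2 fold change, test statistic, p-value and q-value. The deposited values were read as FPKM, since they are not whole and differ in sum between the libraries (412814 and 463340). Per the submitters' processing notes, CASAVA, TopHat2 and the build rn4 go with the RNA samples; no source used here states their scaling. Of 16492 rows, 24 (low in data, failed or repeated) were left out. Groups followed the sample titles.

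The log2 ratio added 1 FPKM, genes reaching 1 FPKM in either library counted as measured, and folds are plain ratios. The implied standard error is the authors' log2 fold change divided by their test statistic, whose normal tail equals their p-value to within 2.76e-06. Loci were read as starting at 0 and printed from 1: so counted, 1186 of 1187 short olfactory receptor loci have a length in whole codons.

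The sources used here give no read totals. The commonest p-value of genes at 0 in the other library (0.149 for 232 proximal and 0.169 for 234 distal rows) was taken to mark 1 read. Olfactory receptor genes of about 942 bases then put 3 reads at 0.426 FPKM (proximal) and 0.339 FPKM (distal), and folds were left out for lower values under this floor. These limits cover counting error only.

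No test between regions was made with 1 library each. The members and lists were chosen with earlier results of these data known. Besides all HoxB genes, genes named were other Hox genes, genes within 300 kb, list members at least 2-fold apart, the 2 most abundant of each list, and the 3 genes nearest to Hoxb13 and Hoxb7; a few genes of this rule, and a list of other homeobox genes, are not reported here. The ratio and count step was tested on simulated data. Alternatives were other pseudocounts, minimums, scalings and folds, and leaving out genes that share a locus. Analyses used Python 3.11.15, pandas 2.3.3 and numpy 2.4.6. Mature microRNA sequences are from RefSeq (GRCr8), matched by precursor symbol for all those printed.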

Additional observations from a re-analysis of the deposited data

How the results depend on the processing

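No paired analysis was possible because each region had 1 library, and for the same reason no replicate could be left out. The counts of HoxB genes past 2-fold towards the proximal (5) and distal (1) library stayed at these values under the 2 other pseudocounts, both other minimums, a fold of 4 and without genes sharing a locus, and the proximal count became 6 under both rescalings of the distal library, by Hoxb9. All 7 HoxB genes had the same direction under every alternative run, but none of the alternatives could have changed a direction. The 2 rescalings multiplied the distal values by 0.932 and 0.888. That moves the proximal-higher genes further the same way and is far too small to undo the 98.5-fold difference of Hoxb13. A pseudocount, minimum, fold limit or locus filter leaves the sign of a ratio as it is. The minimums and the locus filter also could not change the HoxB counts. All 7 genes reached 5 FPKM in 1 library, and none shares its locus. The median log2 ratio of Hoxb3 to Hoxb9, -3.97, became -5.50 on adding 0.1 FPKM and -2.19 on adding 5 FPKM, and that of Hoxb13, 6.22, was 5.25 with 5 FPKM; a pseudocount shrinks ratios of low values by construction. Equal upper quartiles moved the median of all measured genes from 0.09 to -0.063, and the median of the Polycomb and Trithorax list turned from 0.16 to -0.0050. The number of HoxD genes past 2-fold towards the distal library, 4, fell to 1 on adding 5 FPKM and was 2 with a minimum of 5 FPKM. Depth limits the distal values of Hoxb3 and Hoxb4, which may rest on 1 to 3 reads.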
